A study of Mus musculus with 4 samples.

Results

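Krt8, Krt18, Krt19, Epcam, Cdh1 and Cldn6 encode parts of the simple epithelium, the single-layered sheet of cells that lines tubes and covers early embryonic tissues. The 6 genes were taken by name from the markers in the authors' deposited table, 1197 genes in 2212 entries, and all 6 were found, with 31 entries between them. The cells were mouse embryonic stem cells that carry BRG1 3XFLAG, a tagged form of the ATPase of a chromatin remodelling complex, in all 4 libraries. They underwent a directed cardiac differentiation and were profiled as single cells at a mesoderm stage and at a cardiac stage, once in the line with the tag alone and once with BRM KO, a knockout of the alternative ATPase, added to it. With 1 library for each genotype and stage there was no replicate. No column of the table names a library and its deposited name refers to the knockout alone, so it may hold cells of fewer than 4 libraries, and genotypes and stages were not compared. Whether a line is 1 clone is not stated. Each entry sets 1 of 15 numbered clusters against all other cells.

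Type II keratin 8 and the type I keratins 18 and 19 pair to build the intermediate filaments of simple epithelia, with keratin 18 the usual partner of keratin 8. Cdh1, E-cadherin, holds neighbouring cells together at adherens junctions, Cldn6 is a claudin of embryonic tight junctions, and Epcam is an adhesion molecule of epithelial and pluripotent cells. The epiblast is an epithelium that carries E-cadherin, and mesoderm leaves it through the primitive streak while losing E-cadherin and gaining mesenchymal genes such as Vim. Heart muscle cells descend from that mesoderm.

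Of the 31 entries, 15 were higher in a cluster and 16 lower. All 6 genes were listed as higher in cluster 3, led by Krt8, T and Trh, which listed 5.26% of the table's genes as higher. Cluster 14 listed 5 of the 6 as higher beside 26.2% of the table's genes, cluster 8 listed 3 beside 5.51%, and cluster 9 listed 1 beside 9.61%. The count in cluster 9 was thus near its background. Every lower entry belonged to Krt8 or Krt18, with 8 each. Clusters 0, 1, 4, 5, 10, 11 and 12 listed both as lower, beside 3.76%, 2.59%, 2.42%, 4.26%, 4.09%, 1.59% and 3.84% of the table's genes in that direction. Clusters 6 and 7 listed 1 each, Krt8 and Krt18, beside 2.17% and 2.84%. Krt19, Epcam, Cdh1 and Cldn6 were listed lower in no cluster. The fold changes are read as natural logs, a base inferred from the values. A gene enters the table only where this log fold change was at least 0.50 in size and the gene was detected in at least 25.1% of cells inside or outside, so genes with little detection overall can hardly be listed as lower. The same expression values had made the clusters and the 6 genes were chosen with earlier results known, so these counts describe the clusters and were not tested. All comparisons also share most of their reference cells.

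**Figure D1:**
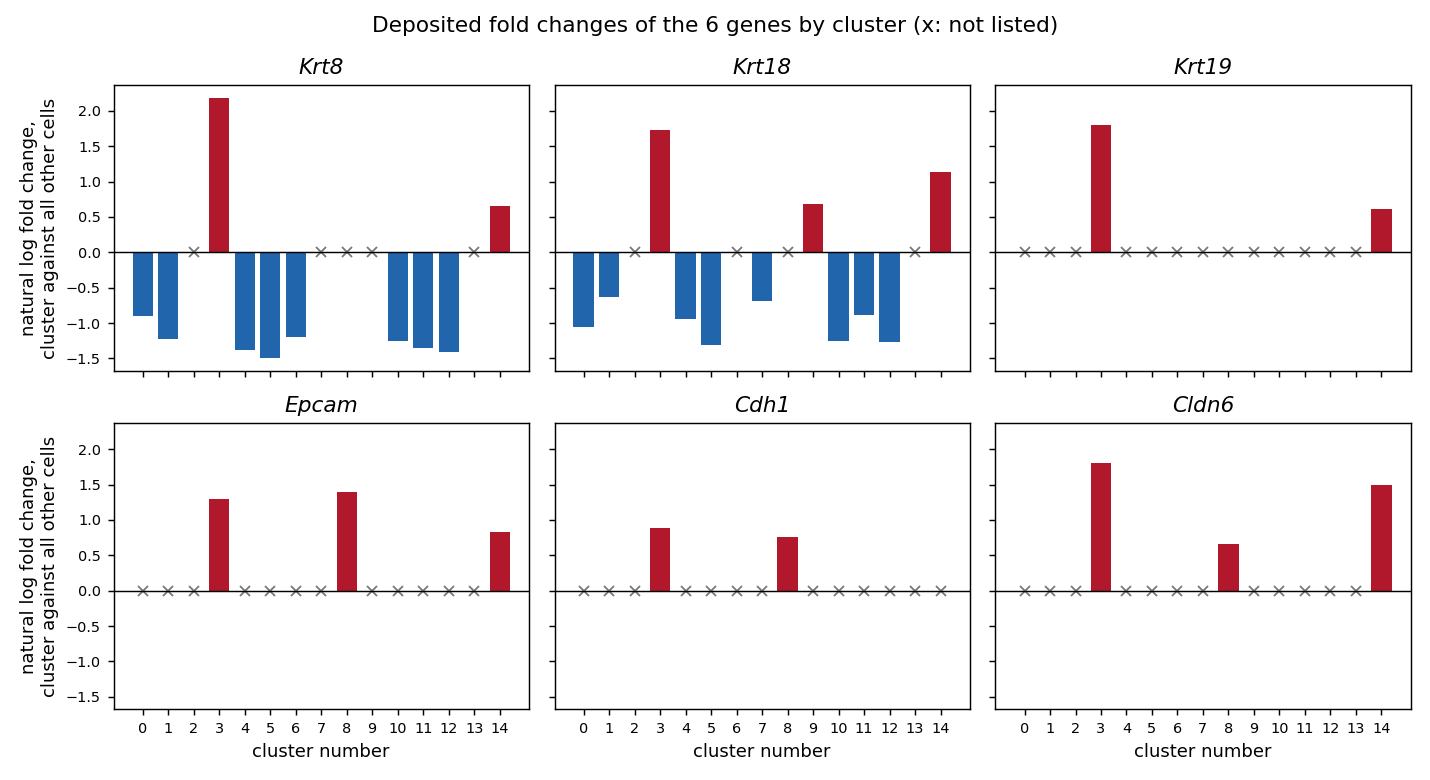
Natural log fold change of each gene (vertical axis) in each numbered cluster against all other cells (horizontal axis), from the authors' deposited table, with a cross where a gene is not listed. Red bars are higher and blue bars lower; cluster 3 is higher in all 6 panels, and lower entries are seen for Krt8 and Krt18.

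Since the 6 genes were listed together in cluster 3, the promoters available for them are shown first. RefSeq promoter sequences on GRCm38.p6, a later build than the mm9 build of the submitters' processing notes, matched Krt8, Krt18, Epcam and Cldn6. Krt19 and Cdh1 had no promoter sequence there and were not searched, so the counts below leave them out. The 250 bases before the annotated start lie at chr15:102004343-102004592 on the minus strand for Krt8 and at chr15:102027966-102028215 on the plus strand for Krt18. Those of Epcam and Cldn6 lie at chr17:87635729-87635978 and chr17:23679115-23679364, both on the plus strand. Krt8 and Krt18 are next to each other among coding genes on chromosome 15. In the sequences below, written 5′ to 3′ on the gene's own strand, capitals mark CACCTG or its reverse complement CAGGTG, the E-box that Snail and ZEB proteins can bind.
Krt8: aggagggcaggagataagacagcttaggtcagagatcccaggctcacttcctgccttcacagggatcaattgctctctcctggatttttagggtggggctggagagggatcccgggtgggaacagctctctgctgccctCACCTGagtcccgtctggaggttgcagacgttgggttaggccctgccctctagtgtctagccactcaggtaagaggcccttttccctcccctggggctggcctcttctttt
Krt18: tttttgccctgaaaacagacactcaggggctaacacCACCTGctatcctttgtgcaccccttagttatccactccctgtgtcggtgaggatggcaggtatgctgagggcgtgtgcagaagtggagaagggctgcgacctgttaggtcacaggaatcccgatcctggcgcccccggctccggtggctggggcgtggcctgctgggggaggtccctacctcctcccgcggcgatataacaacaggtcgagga
Epcam: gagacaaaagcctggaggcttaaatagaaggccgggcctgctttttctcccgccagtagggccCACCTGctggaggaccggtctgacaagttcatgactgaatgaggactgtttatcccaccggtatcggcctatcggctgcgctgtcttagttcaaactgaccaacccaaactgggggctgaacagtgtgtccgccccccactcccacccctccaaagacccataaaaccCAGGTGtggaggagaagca
Cldn6: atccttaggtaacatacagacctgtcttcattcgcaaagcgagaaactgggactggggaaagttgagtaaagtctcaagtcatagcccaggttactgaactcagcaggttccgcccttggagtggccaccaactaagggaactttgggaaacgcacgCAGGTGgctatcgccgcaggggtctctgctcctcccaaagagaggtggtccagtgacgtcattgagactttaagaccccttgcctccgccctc
The E-box was found in 4 of 4 promoters, against 17.2% of all 32851 promoters of the same length and 14.8% of the 1177 promoters that belong to genes of the table. It begins 111 bases before the start in Krt8, 214 in Krt18, 187 and 19 in Epcam and 93 in Cldn6. The GC box GGGCGG was found in 2 of 4, Epcam and Cldn6, against 32.7% of all promoters and 57.4% of those of the table's genes. The TATA box, searched as TATAAA, was found in 0 of 4 within this window, against 12.4% of all promoters and 8.5% of those of the table's genes. The CCAAT box was also found in 0 of 4, against 33.8% and 36.3%. The AP-1 motif TGANTCA was found in 0 of 4, against 6.75% and 5.18%. Both strands were searched and no matches of different motifs overlapped. A match of letters is a description and shows no binding.

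Krt8, the type II keratin, led cluster 3. It was detected in 93% of the cells of cluster 3 against 22.9% of all other cells, and its mean was 8.87-fold higher, per the authors' deposited table. In cluster 14 it was detected in 76.1% against 30%, with a 1.94-fold higher mean, per the authors' deposited table. Both clusters therefore lay far above their reference in the share of Krt8 cells, with the larger fold in cluster 3. The 8 clusters that listed Krt8 as lower detected it in 3.7% to 25.2% of their cells, per the authors' deposited table. Cluster 5, led by Sostdc1 and cartilage collagen genes, was the lowest at 3.7% and was 4.46-fold lower, and cluster 12, led by the neuronal tubulin Tubb3, followed with 4.3% and 4.10-fold lower, per the authors' deposited table. Clusters 4, 10, 11, 6 and 1 detected Krt8 in 6.1%, 7%, 10.1%, 10.2% and 11.2% of cells, at 3.33-fold to 3.96-fold lower, per the authors' deposited table. Cluster 0, led by the retinoic acid binding gene Crabp1, stood apart among them, with Krt8 in 25.2% of cells against 31.1% outside and a 2.45-fold lower mean, per the authors' deposited table.

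Krt18, the type I partner, followed Krt8 in most clusters. In cluster 3 it was detected in 91.2% of cells against 28.4% outside and was 5.66-fold higher, per the authors' deposited table. In cluster 14 it was detected in 85.3% against 34.8% and was 3.11-fold higher, per the authors' deposited table. Cluster 9, led by Igfbp7, Tagln and Vim, listed Krt18 as higher without Krt8, in 51.2% of cells against 34.4% and at 1.99-fold, per the authors' deposited table. Krt18 was the 1 gene of the 6 that cluster 9 listed. Clusters 5, 10, 12, 4, 0, 1, 11 and 7 listed it as lower, with 6%, 6.3%, 8.3%, 15.8%, 17.9%, 26%, 26.3% and 26.8% of cells and folds from 1.89-fold to 3.69-fold lower, per the authors' deposited table.

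The 2 keratins were both listed in 9 clusters, and the direction was the same in 9 of 9. More cells had Krt18 than Krt8 in 6 of these clusters and fewer in 3. The gap was widest in cluster 11, with 26.3% against 10.1%, and in cluster 1, with 26% against 11.2%, per the authors' deposited table. It ran the other way in cluster 0, where 17.9% of cells had Krt18 and 25.2% had Krt8, per the authors' deposited table. In clusters 3 and 10 the shares differed by 1.8 and 0.7 percentage points. Cluster 6 listed Krt8 alone and clusters 7 and 9 listed Krt18 alone, while clusters 2, 8 and 13 listed neither.

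**Figure D2:**
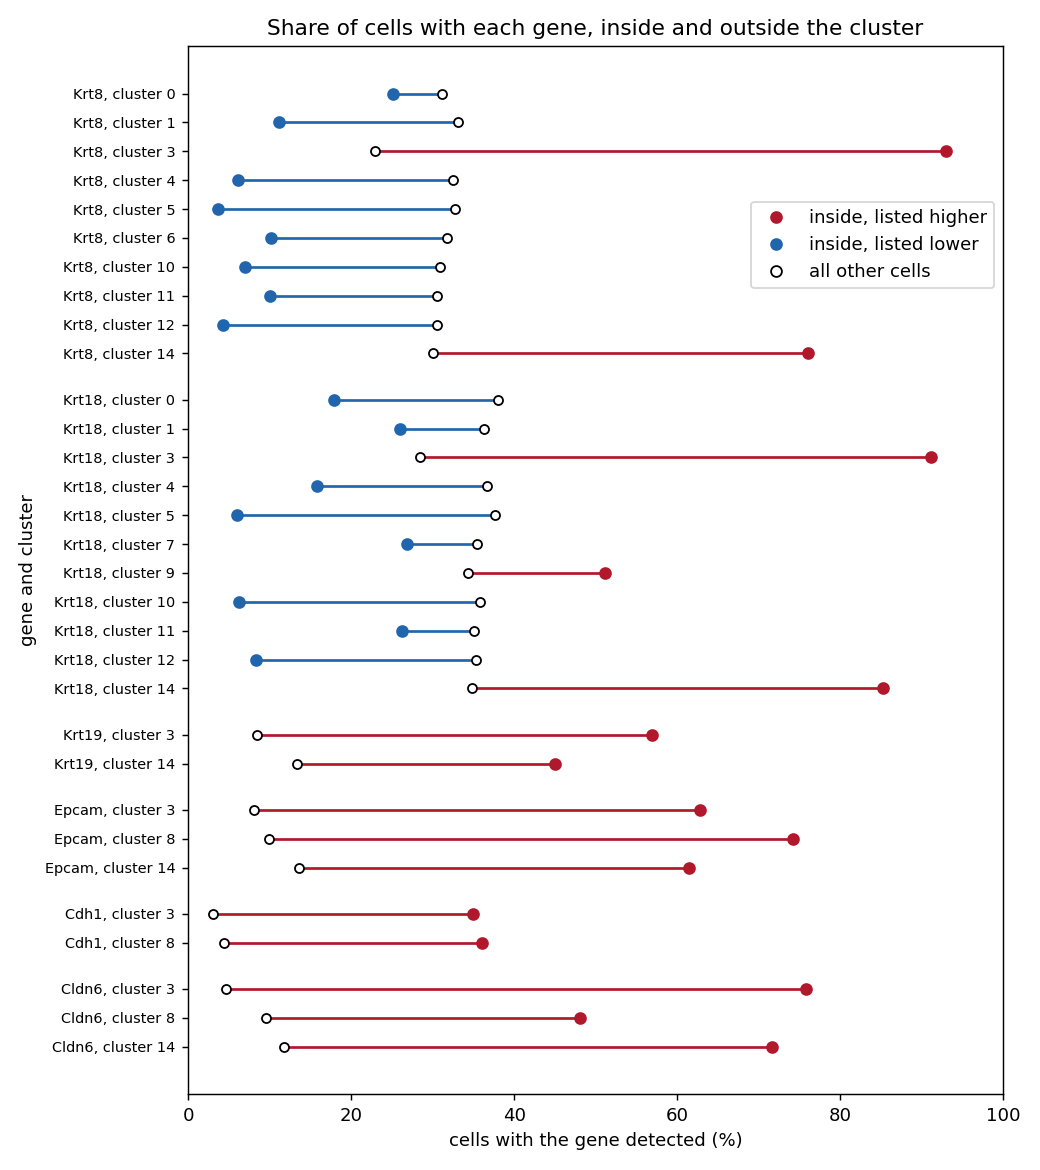
Share of cells with the gene detected (horizontal axis, percent) for each gene and cluster that lists it, from the authors' deposited table. Filled points are cells inside the cluster, red where the gene is listed higher and blue where lower, and open points are all other cells; the Krt8 and Krt18 references lie between 22.9% and 38%, and those of Cdh1 at 3% and 4.4%.

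Krt19, the smallest of the keratins, was listed in 2 clusters. Cluster 3 detected it in 56.9% of cells against 8.4% outside, at 6.04-fold, per the authors' deposited table. Cluster 14 detected it in 45% against 13.4%, at 1.86-fold, per the authors' deposited table. It was therefore found in fewer cells of either cluster than Krt8 or Krt18.

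The adhesion genes showed a different set of clusters, because cluster 8 listed them and listed no keratin. The table gives no keratin value for cluster 8, so a lack of keratins there is not shown. The clusters that did not list a keratin, cluster 8 among them, detected Krt8 in a mean of 43.7% of cells. For Krt18 this mean was 47.7% and for Krt19 it was 8.32%. Cluster 8 was led by Pou5f1, Dnmt3b and Pim2 and listed 6 of the 11 pluripotency and epiblast markers as higher. Of these 11 markers 7 are in the table, 4 of them through cluster 8 alone, so the count is partly set by which genes the table holds. Epcam was detected there in 74.2% of cells against 9.9% outside and was 4.04-fold higher, per the authors' deposited table. In cluster 3 Epcam was detected in 62.8% against 8.1%, at 3.67-fold, and in cluster 14 in 61.5% against 13.6%, at 2.28-fold, per the authors' deposited table. Of the 3 genes listed in both clusters 3 and 8, Epcam was the 1 with a larger fold in cluster 8. Cdh1 was detected in 36.1% of the cells of cluster 8 against 4.4% and in 35% of those of cluster 3 against 3%, at 2.14-fold and 2.42-fold, per the authors' deposited table. Cdh1 was not listed for cluster 14, so the table gives no value for it there.

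Cldn6 was lower in cluster 8 than in clusters 3 and 14. It was detected in 75.8% of the cells of cluster 3 against 4.6% outside, the widest ratio of the 31 entries at 16.5, and was 6.08-fold higher, per the authors' deposited table. Cluster 14 detected it in 71.6% against 11.8%, at 4.48-fold, per the authors' deposited table. Cluster 8 detected it in 48.1% against 9.6%, at 1.93-fold, per the authors' deposited table.

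Because the clusters differ in size, their levels were put on 1 scale, the mean over all cells, using cluster sizes solved from the authors' deposited table. Cluster 3 held 10.4% of cells, cluster 8 held 6.04%, cluster 9 held 3.24% and cluster 14 held 0.291%. A gap of 0.5 or more between natural logs was called different, with no test. The levels rest on the deposited folds, and a constant that may have been added before logs was not removed from them. On this scale Krt8 was 4.89 times the mean of all cells in cluster 3 and 1.93 times in cluster 14, a difference of 0.93 on the natural log scale. Among the clusters that listed Krt8, cluster 0 came next at 0.449 times, below the mean of 0.988 times over the clusters that did not list it, and it lay within 0.5 of clusters 1, 6 and 10 and above clusters 4, 11, 12 and 5. The lowest of those that listed it, cluster 5, was at 0.240 times the mean, so that cluster 3 was 20.4-fold above it. Krt18 was at 3.82 times the mean in cluster 3 and 3.09 times in cluster 14, which lay within 0.5 of each other, and at 1.93 times in cluster 9, which lay within 0.5 of cluster 14 but not of cluster 3. Krt19 differed between clusters 3 and 14 by 0.76.

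The junction genes ranked the clusters in other orders. Epcam was at 3.41 times the mean in cluster 8, 2.88 in cluster 3 and 2.27 in cluster 14, all within 0.5 of each other. Cdh1 was at 2.11 times in cluster 3 and 2.00 times in cluster 8, a difference of 0.05 on the natural log scale. Cldn6 was at 4.44 times in cluster 14 and 3.98 times in cluster 3, within 0.5, and both lay above cluster 8 at 1.83 times, by 0.89 and 0.78. Cdh1 was compared between clusters 3 and 8 alone, as cluster 14 did not list it. The clusters that did not list Cdh1 came to 0.79 times the mean on this scale, though they detected it in a mean of 0.609% of cells. For Cldn6 the level was 0.557 times at 1.19% of cells, and for Epcam 0.587 times at 3.12%. Levels of these 3 genes are therefore not read as multiples of transcript amount, and gaps between clusters may be understated. The part of a constant was not tested.

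The share of all cells with a gene must come out alike from each cluster that lists it, and for the 6 genes it did to within 0.1 percentage points. The cluster sizes were solved to make these shares agree, with the 6 genes included, so this agreement is partly set by the fit. Krt18 was detected in 34.9% of all cells, Krt8 in 30.2%, Epcam in 13.8%, Krt19 in 13.5%, Cldn6 in 11.96% and Cdh1 in 6.31%, calculated from the authors' deposited table. The cells with a junction gene sat in a few clusters. Clusters 3 and 8, with 16.4% of all cells, held 91.9% of the cells that detected Cdh1, 57.4% in cluster 3 and 34.5% in cluster 8. Clusters 3, 8 and 14, with 16.7% of all cells, held 91.7% of Cldn6 cells and 81.1% of Epcam cells. Over the clusters that did not list them, Cdh1 was detected in a mean of 0.609% of cells, Cldn6 in 1.19% and Epcam in 3.12%.

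Krt8 and Krt18 cells were spread more widely. Cluster 3 alone held 31.9% of Krt8 cells, 27.1% of Krt18 cells and 43.8% of Krt19 cells. The same cluster alone held 47.3% of Epcam cells, 57.4% of Cdh1 cells and 65.6% of Cldn6 cells, so Krt19 was close to Epcam there. Cluster 8 has no keratin value, so the shares of the keratins cannot be set against those of the junction genes over the same clusters. The 8 clusters that listed Krt8 as lower held 60.0% of all cells and 24.8% of Krt8 cells, and those that listed Krt18 as lower held 59.3% of cells and 30.9% of Krt18 cells. Clusters that did not list Krt8 (2, 7, 8, 9 and 13) detected it in a mean of 43.7% of cells, at 0.988 times the mean level of all cells, and they held 42.6% of Krt8 cells. The clusters that did not list Krt18 (2, 6, 8 and 13) detected it in a mean of 47.7% of cells, at 1.05 times the mean level. Krt19 was detected in a mean of 8.32% of cells over the 13 clusters that did not list it, and these held 55.2% of its cells. Most Krt8, Krt18 and Krt19 cells therefore lay outside cluster 3. For scale, cluster 12, whose leading genes are those of neurons, a cell type without these keratins as a rule, had Krt8 in 4.3% and Krt18 in 8.3% of cells, per the authors' deposited table. Depth by cluster is unknown.

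**Figure D3:**
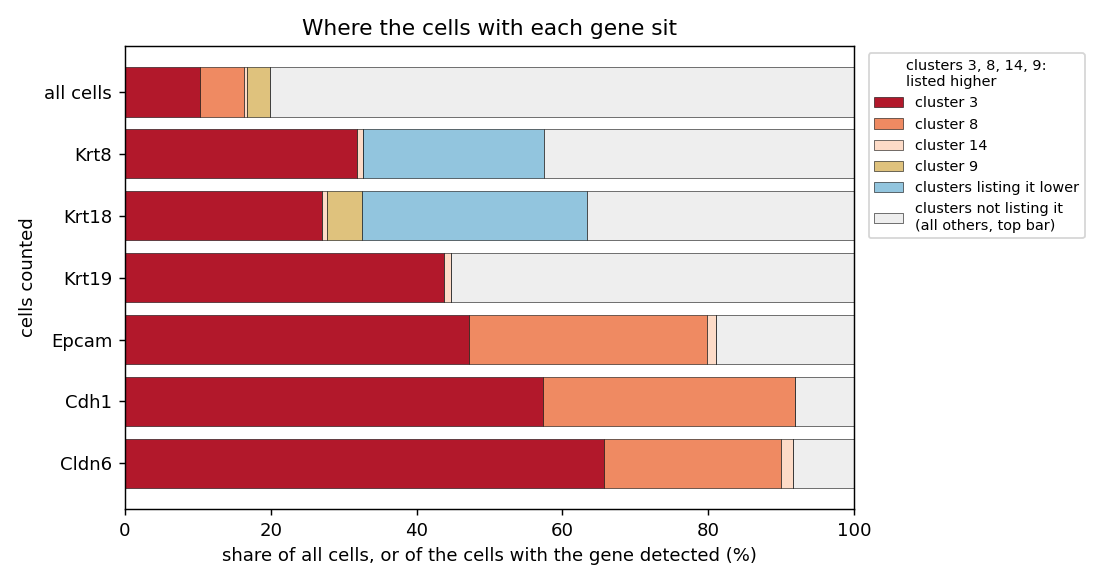
Share of all cells (top bar) and of the cells with each gene detected (other bars) that sit in clusters 3, 8, 14 and 9, in clusters that list the gene as lower, and in clusters that do not list it, in percent. Clusters 3 and 8 take 91.9% of Cdh1 cells, while clusters that do not list Krt19 take 55.2% of its cells.

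Fold and detection did not move in step. For Krt19, Epcam, Cdh1 and Cldn6 the fold was smaller than the ratio of detection in 10 of 10 higher entries, against 70.1% of the 1305 higher entries of the whole table, and for Krt8 and Krt18 in 1 of 5. For Cdh1 in cluster 3 the detection ratio was 11.7 and the fold 2.42, per the authors' deposited table. In the same cluster Krt8 had a detection ratio of 4.06 and a fold of 8.87, per the authors' deposited table. A constant added before logs, its size not given in the sources used here, would lower the folds of weakly expressed genes, and its part was not tested. Levels and folds of the 6 genes are therefore not compared with each other.

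Since cluster 3 held many keratin cells, the entries were worked out again with cluster 3 removed from the reference, a comparison chosen after seeing the data. Of the 16 lower entries, 12 still passed 0.5 on the natural log scale, 7 of 8 for Krt8 and 5 of 8 for Krt18. Krt8 in cluster 0 went from 2.45-fold to 1.27-fold lower, and its share of cells, 25.2%, was then above the 22.5% of the remaining cells. Krt18 went from 1.89-fold to 1.23-fold lower in cluster 1, from 2.00-fold to 1.32-fold lower in cluster 7 and from 2.44-fold to 1.64-fold lower in cluster 11. In those 3 clusters, the share of Krt18 cells was at most 2.83 percentage points below the remaining cells. Krt8 in cluster 5 stayed 2.43-fold lower and Krt18 there 2.48-fold lower. Because cluster 3 lay above its reference for all 6 genes, leaving it out could only shrink lower folds and raise higher ones. The higher entries of the other clusters were thus larger, with Epcam at 5.75-fold in cluster 8, Cldn6 at 3.21-fold in cluster 8 and 6.90-fold in cluster 14, Krt8 at 3.54-fold in cluster 14 and Krt18 at 3.07-fold in cluster 9.

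**Figure D4:**
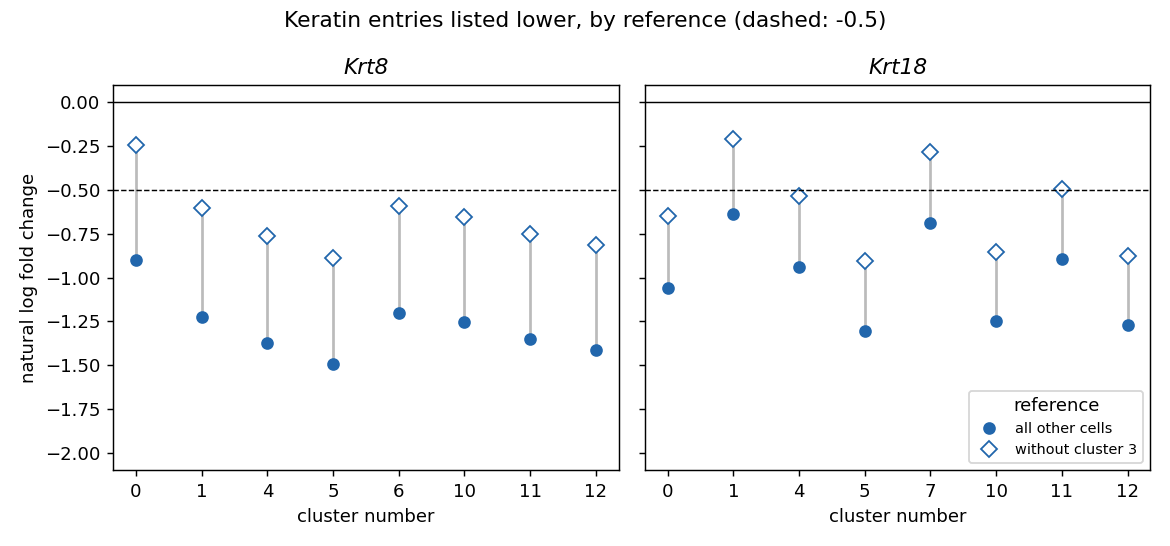
Natural log fold change (vertical axis) of Krt8 and Krt18 in the clusters that list them as lower (horizontal axis), against all other cells (filled circles) and against all other cells without cluster 3 (open diamonds). The dashed line is the table's threshold; Krt8 in cluster 0 and Krt18 in clusters 1, 7 and 11 cross it when cluster 3 is removed.

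Other epithelial genes were looked up by list. Of 16 keratins, 3 were found, the members themselves, so no stratified keratin such as Krt5 or Krt14 was listed. The tight junction list had 4 of 30 genes in the table, and cluster 3 and cluster 8 each listed 2 as higher, Cldn6 and Cldn7, while cluster 14, which listed 26.2% of the table's genes as higher, listed all 4. Of these 4 genes, 1 is in the table through cluster 14 alone, so this count is partly set by which genes the table holds. Cldn7, another claudin, was 2.34-fold higher in cluster 3, 1.74-fold in cluster 8 and 3.24-fold in cluster 14, per the authors' deposited table. F11r, which encodes junctional adhesion molecule A, was 2.30-fold higher in cluster 14, per the authors' deposited table. It was not particular to that cluster. Cluster 2, led by heart muscle genes, listed F11r too, at 2.09-fold, per the authors' deposited table. There 34.7% of cells had it against 7.8% outside. Cluster 2, with 12.6% of all cells, held 39.1% of F11r cells, while the far smaller cluster 14 held 1.43%.

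The adherens junction and desmosome list had 7 of 28 genes in the table, and Cdh1 was the 1 listed in clusters 3 and 8. In cluster 14 the list gave the plakoglobin gene Jup at 1.80-fold and the nectin gene Pvrl2 at 1.70-fold higher, per the authors' deposited table. Pvrl2 is in the table through cluster 14 alone. Desmosome genes were listed in cluster 2, beside 22.7% of the table's genes as higher. Cluster 2 was cardiomyocyte-like, with 8 of 8 markers higher, and listed none of the 6 genes. Cluster 13 listed the same 8 markers as higher, beside 64 of the table's 1197 genes, and 0 genes of the junction list. Of the 3 desmosome genes of cluster 2, 2, Dsp and Pkp2, are in the table through cluster 2 alone. Their listing is therefore partly set by which genes the table holds. Dsp, desmoplakin, was 2.15-fold higher in cluster 2, Pkp2, plakophilin, 2.08-fold and Jup 1.88-fold, per the authors' deposited table. These proteins anchor desmin filaments in heart muscle, and Des was 7.62-fold higher in cluster 2, per the authors' deposited table.

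The epithelial identity list had 10 of 32 genes in the table. Cluster 3 and cluster 8 each listed Epcam and Spint2, beside 5.26% and 5.51% of the table's genes as higher. Cluster 14 listed 9 beside 26.2%, and 7 of the 9 are in the table through cluster 14 alone, so the counts are not compared. Spint2, a membrane serine protease inhibitor, was 2.53-fold higher in cluster 3, 1.82-fold in cluster 8 and 3.94-fold in cluster 14, per the authors' deposited table. Lamc1, Lama1, Cd9 and Lamb1 had the largest folds in cluster 14, at 8.26-fold, 7.82-fold, 7.43-fold and 6.88-fold, per the authors' deposited table. Laminins build the basement membrane, and Lama1 and Lamb1 are also on the extraembryonic endoderm marker list, of which cluster 14 listed 13 of 13 table genes as higher. The full marker list has 17 genes, 10 of the 13 are in the table through cluster 14 alone, and that cluster listed 26.2% of all genes in the table as higher, so the count is partly set by which genes the table holds. Cluster 14 is called here by its number.

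Markers placed cluster 3 with no single cell type. It listed as higher 3 of 8 streak and midline markers, T, Foxa2 and Sp5, 3 of 11 gut endoderm markers and 2 of 11 pluripotency and epiblast markers. Of these lists 4, 5 and 7 genes are in the table, and cluster 3 listed 5.26% of the table's genes as higher. Of the 3 streak and midline markers 2, and of the 3 gut endoderm markers 1, are in the table through cluster 3 alone. These counts are therefore partly set by which genes the table holds. Foxa2 is on both of the first 2 lists. Of the trophoblast markers only Hand1 was in the table, not listed for cluster 3, and 0 surface ectoderm markers were in the table, so Krt5, Krt14 and Trp63 were listed for no cluster. The cluster is therefore called here by its number.

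Vim ran the other way in the same clusters. The gene encodes the intermediate filament protein of mesenchyme and was detected in 24.4% of cells in cluster 3 against 52.3% outside, in 19.6% in cluster 8 against 51.3%, and in 23.9% in cluster 14 against 49.5%, per the authors' deposited table. It was 2.66-fold, 3.14-fold and 2.82-fold lower, per the authors' deposited table. Of the 16 mesenchymal genes in the table, clusters 3 and 8 listed 0 as higher and 3 each as lower, beside 3.01% and 4.26% of all genes in the table as lower. Cluster 14 listed 2 as higher, Sparc and Pdgfra, and 2 as lower, Vim and Cdh2, beside 9.19% of the table's genes as lower. Cdh2, N-cadherin, was lower in cluster 8 by 2.25-fold and in cluster 14 by 2.14-fold, and was not listed for cluster 3, per the authors' deposited table. Cluster 9, where Krt18 was higher, listed 9 of the 16 as higher beside 9.61% of the table's genes, with Vim at 4.10-fold, per the authors' deposited table. Of these 9 genes, 2 are in the table through cluster 9 alone. Clusters 10 and 5, where Krt18 was lower, listed 7 and 6 of the 16 as higher, beside 82 and 49 of the table's 1197 genes. In each of these 2 clusters, 1 of those genes is in the table through that cluster alone. Vim was also lower in clusters 0 and 7, by 3.45-fold and 2.61-fold, per the authors' deposited table, where Krt18 was lower too, so low Vim and low keratin were listed together there.

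The genes most like the 6 were found by the Jaccard index, the number of shared listings of the same cluster and direction divided by all listings of the pair, averaged over the 6 genes. Cldn7, Spint2 and Ezr led with a mean index of 0.614, and their clusters were those of Epcam and Cldn6, 3, 8 and 14. Ezr, ezrin, links membranes to actin and was 2.05-fold, 1.83-fold and 1.83-fold higher in those clusters, per the authors' deposited table. For Cldn7, Spint2 and Ezr the index was 0.182 with Krt8 and 0.167 with Krt18. Their mean thus rests mostly on Krt19, Epcam, Cdh1 and Cldn6. Slc16a1, a lactate transporter, and Cstb, a protease inhibitor, followed with a mean index of 0.508 and the clusters of Krt19. Mlf1, Fgf5, Larp7, Mns1 and Psme2 came next at 0.473 with those of Cdh1, and Fgf5, a growth factor of the epiblast, was 3.24-fold higher in cluster 3 and 3.32-fold in cluster 8, per the authors' deposited table. Among the 6 themselves, Epcam and Cldn6 shared 3 of 3 listings and Krt8 and Krt18 shared 9 of 12, while Krt8 and Cdh1 shared 1 of 11.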

How the data were processed

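Single cells of 4 libraries, 1 for each genotype and stage, were profiled with 10x V2 chemistry, and the authors used Cell Ranger, Seurat and the mm9 build, according to the submitters' processing notes. For versions, cell filters, doublet treatment and the libraries behind the clusters, nothing was given in the sources used here. As cell numbers and depth are unknown, no counting interval was made. Fold changes that the authors deposited were read here as natural log values, an inference, since the header names no base. For 6 genes listed in at least 12 clusters, the level left for the other clusters lay within 0.5 of the mean (natural log) in 6 of 6 genes with the natural base, 3 with base 2 and 0 with base 10, where all 6 levels were below 0. Base 2 was kept as an alternative. The deposited fraction of cells with a gene is printed as a percent. The deposited p-values compare cells, which are not replicates, and served only as a filter in 1 alternative.

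Cluster sizes were solved by least squares from 407 genes listed in 2 or more clusters, and add up to 100.002%, the residuals having an SD of 0.0272 percentage points. A cluster's share of detecting cells is size times share inside, divided by the share of all cells. The level relative to all cells is r/(sr + 1 - s), with r the fold and s the size. The steps were tested on simulated data made without a constant added before logs. That simulation therefore does not check how such a constant would change the levels. No test was made, as the table has no samples. The members, gene lists and rules were chosen with earlier results of these data known. Named were the members, the 10 most alike genes and, for each list, up to 4 genes with the largest change in clusters listing 2 or more members; Dsp, Pkp2, Jup and Des in cluster 2, Vim in clusters 0, 7 and 9, and marker genes were named after their values were seen. 1 gene that this rule names is not reported here. A planned comparison of keratin proteins was not run, as protein sequences were not used here. Python 3.11.15, numpy 2.4.6, pandas 2.3.3 and matplotlib 3.10.9 were used.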

Additional observations from a re-analysis of the deposited data

How the results depend on the processing

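Solving the cluster sizes from genes listed in 3 or more clusters, or without the 6 genes, moved none of the shares of all cells, shares of detecting cells or (for the first) levels by more than 10%. The authors' adjusted p under 0.05 changed none of the counts. Requiring an absolute fold of 1 or more on the natural log scale, the count of the 6 genes listed higher fell to 1 in cluster 8 and 2 in cluster 14, against 3 and 5, and 23 of the 33 counts of members or list genes fell by over 1.5 times. With a share of cells of at least 50% inside or outside, 11 of 14 counts fell so far, cluster 8 had 1 gene, and 0 of the 16 lower entries were left, as both shares were under 50% in all of them. Read as base 2 logs, all 31 levels moved by over 10%, and those in cluster 3 relative to all cells came to 3.32 for Krt8, 2.68 for Krt18, 2.77 for Krt19, 2.14 for Epcam, 1.70 for Cdh1 and 2.78 for Cldn6. Removing cluster 3 from the reference, chosen after seeing the data, left 12 of 16 lower entries. Ranking likeness by the mean absolute difference over all clusters kept 7 of the 10 most alike genes. No paired analysis was possible because the table has no columns of samples. Depth and cell numbers are unknown, which limits the smallest clusters, 13 and 14, most.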
